A study of Homo sapiens with 12 samples.

Results

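Of the 21874 transcriptional units that the depositors segmented from TT-Seq of K562 cells, 261 carried a class outside mRNA, long intergenic RNA and the short non-coding classes. They were chosen by that deposited class. The units themselves were called on TT-Seq signal, so every member had signal there by construction, and each comparison of TT-Seq with another group is conditional on that. Pseudogene classes made up 129 of them, 71 were processed transcripts, 34 were ambiguous, and 27 were of other kinds: 18 of the class TEC (loci whose transcript still awaits experimental proof), 5 sense-overlapping units, 3 sense-intronic units and 1 miscellaneous RNA. K562 is an established human line from chronic myeloid leukaemia, grown here to passage 3-5. The 8 RNA libraries form 4 groups of 2, all from cells given 500 µM 4-thiouridine (4sU), a uridine analogue built into new RNA, for 5 min. TT-Seq RNA was sheared by sonication and then purified for 4sU, 4sU-Seq RNA was purified without shearing, Total RNA-Frag-Seq RNA (sheared total RNA below) was not purified, and Total RNA-Seq RNA (unsheared total RNA) had neither step. The remaining 4 libraries are ChIP of polymerase II in crosslinked cells, 2 with an antibody that needs phosphate on serine 2 of its tail (S2P) and 2 with N-20 (N20), an antibody that binds the enzyme whatever its phosphorylation. The RNA pairs are described as biological duplicates, while the labels leave it unsaid for ChIP, where the spread may be technical.

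A pseudogene is a copy or relic of a gene that no longer makes the gene's protein. A processed pseudogene came from an mRNA that was copied back into DNA and lacks introns, an unprocessed one from a duplicated stretch of genome with its exons and introns, and a unitary one from the loss of the only copy. Many are still transcribed, and their RNA can resemble that of the parent gene closely enough for short reads to be assigned to the wrong copy. A processed transcript is a non-coding transcript of a locus with no open reading frame, such as a host of small nucleolar RNAs (snoRNAs), which guide the modification of ribosomal RNA and are cut out of their host's introns. Purification for 4sU enriches RNA made during the label, so a long-lived RNA is a smaller share of a purified library than of total RNA, and a short-lived one a larger share. Shearing before purification also removes the older 5' part of a molecule whose end was being made during the label.

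Promoter sequences of a few snoRNA hosts and divergent transcripts, and microRNA sequences of a few hosts, are given as a description of these units. Of the 261 members, 80 had a RefSeq promoter entry (GRCh38.p14) on their own strand, 74 of them with its start within 3 kb of the unit's start. The windows below run from 50 bases before to 50 bases after the RefSeq start, 5' to 3'. The first 4 belong to the snoRNA host (SNHG) members with such an entry, shown because most of this group was lower in purified RNA. Many snoRNA host genes begin with a run of pyrimidines. Capitals mark CTTTT where it lay on the sense strand within 20 bases of the start, a motif chosen after these sequences had been seen.
SNHG5 (chr6:85678684-85678783, minus strand): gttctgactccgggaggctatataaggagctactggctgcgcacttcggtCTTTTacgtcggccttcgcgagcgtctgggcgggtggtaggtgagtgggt
SNHG16 (chr17:76557714-76557813, plus strand): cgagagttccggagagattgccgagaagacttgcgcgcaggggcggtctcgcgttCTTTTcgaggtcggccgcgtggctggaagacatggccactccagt
SNHG33 (chr3:183447558-183447657, plus strand): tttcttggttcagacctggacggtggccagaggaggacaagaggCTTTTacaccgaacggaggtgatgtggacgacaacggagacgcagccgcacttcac
SNHG11 (chr20:38446604-38446703, plus strand): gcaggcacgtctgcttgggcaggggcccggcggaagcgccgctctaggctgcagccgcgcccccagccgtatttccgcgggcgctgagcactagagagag
The motif was in 3 of the 4 SNHG windows, in 6 of the 74 members (8.11%) and in 4.87% of all 35116 RefSeq promoters in the same window on the sense strand. On either strand it was in 9 of the 74 members and 7.98% of all promoters. The next 3 belong to short transcripts that were higher in purified RNA: 2 named as divergent transcripts (-DT) of a neighbouring gene, and FLJ38576. Capitals mark each CG pair in the whole window.
CEP83-DT (chr12:94459953-94460052, plus strand): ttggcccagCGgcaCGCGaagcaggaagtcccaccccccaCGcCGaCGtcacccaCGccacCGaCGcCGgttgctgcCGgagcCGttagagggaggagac
PATL1-DT (chr11:59669260-59669359, plus strand): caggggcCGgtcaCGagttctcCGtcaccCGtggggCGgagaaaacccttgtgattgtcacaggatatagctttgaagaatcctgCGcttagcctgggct
FLJ38576 (chr4:186191441-186191540, minus strand): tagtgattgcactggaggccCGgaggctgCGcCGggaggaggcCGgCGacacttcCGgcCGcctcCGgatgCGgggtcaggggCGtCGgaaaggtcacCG
CEP83-DT and FLJ38576 held 12 CG pairs each and PATL1-DT held 6, against a median of 5 over all promoters, 10 over the 74 members and 7 over the 10 with a -DT symbol or the TEC class. On their own strand 15 members held genes of 24 mature microRNAs, the small RNAs that pair with messages through bases 2 to 8, the seed. Those of 3 members named as microRNA hosts (HG) are given with the seed in capitals, and no pair of them shares a seed.
hsa-miR-3936 (chr5:132365513-132365534, minus strand): uAAGGGGUguauggcagaugca
hsa-miR-550a-3p (chr7:29680748-29680769, minus strand): uGUCUUACucccucaggcacau
hsa-miR-550a-3-5p (chr7:29680789-29680808, minus strand): aGUGCCUGagggaguaagag
hsa-miR-3171 (chr14:27633246-27633269, minus strand): aGAUGUAUggaaucuguauauauc
The values below are of the whole host unit, since no count here is of a mature microRNA.

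Counts per unit are the deposited counts in 200 bp bins summed over the unit on its strand, exons and introns together. Units held between 85.9 and 89.1% of all binned counts in the RNA libraries, 22.4 to 63.6 M per library, and 52.8 to 81.2% in the ChIP libraries, 6.65 to 54.4 M. Levels are CPM, counts per 1 M counts in units after TMM scaling (edgeR's correction for composition), and CPM per kb divides this by the unit's length. Log CPM of replicates correlated across units at 0.996 to 0.998 (Pearson, RNA) and 0.977 to 0.980 (ChIP), where units are not independent replicates. Of 13 erythroid and megakaryocytic markers 6 could be measured, at 0.459 to 11.3 CPM per kb in TT-Seq. The measured T cell (2 of 4), B cell (2 of 4) and myeloid (2 of 4) markers lay between 0.000932 and 0.328, and the epithelial keratin KRT8 was at 1.10. In these bulk libraries fewer cells that make an RNA and less of it per cell cannot be told apart.

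The members were long units with mostly 1-sided transcription. Their median length was 22.3 kb, against 43.1 kb in the mRNA class, from 0.297 kb for RN7SK to 378.752 kb for MIR3171HG. The median share of TT-Seq counts on the unit's own strand, of both strands together, was 96.6%, but in 31 members the other strand held more. A RefSeq symbol could be given to 208 members, with 204 distinct symbols, and 53 are named here by coordinates. Of the 34 ambiguous units 21 carried the name of a protein-coding gene and 16 held another gene too, such as PCBP2, an RNA-binding protein gene, whose unit also holds PRR13.

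In level the members lay below the mRNA class. Median TT-Seq level was 0.602 CPM per kb over members, 1.02 over the mRNA class and 0.443 over the long intergenic class. As a share of all counts in units, the 261 members took 1.29% ± 0.00318 (SD, n = 2) in TT-Seq and 1.52% ± 0.0270 in 4sU-Seq. They took 1.69% ± 0.0305 of sheared and 1.61% ± 0.00781 of unsheared total RNA. The TT-Seq share was the lowest of the 4, and the pairs did not overlap. These are sums, in which large units weigh most. The 25 transcribed processed pseudogenes, with the longest unit MIR3171HG, took 0.102% in TT-Seq and 0.205% in sheared total RNA. Without RN7SK the members took 1.285% and 1.648%. The polymerase libraries gave 1.25% ± 0.0128 (S2P) and 1.29% ± 0.00975 (N20).

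By CPM per kb in TT-Seq, RN7SK, the RNA that holds back the elongation factor P-TEFb, stood far above the rest at a mean of 193. Next came PCBP2 at 6.10 and RPL35P5, a processed pseudogene of a ribosomal protein gene, at 5.63. A sense-overlapping unit at chr12:54279166-54321359, whose span also covers HNRNPA1 and NFE2, was at 5.27, and the snoRNA host SNHG16 at 4.70. The strand of NFE2 was not checked, so the 5.27 need not include its RNA. TEKT4P2 (4.16), SNHG5 (3.99), LINC03009 (3.72), BAGE2 (3.21) and BNIP2 (3.19) completed the 10 highest. BNIP2 is an ambiguous unit that also holds GTF2A2, a general transcription factor gene. The plot of levels in single libraries shows several of these with members described below.

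**Figure D1:**
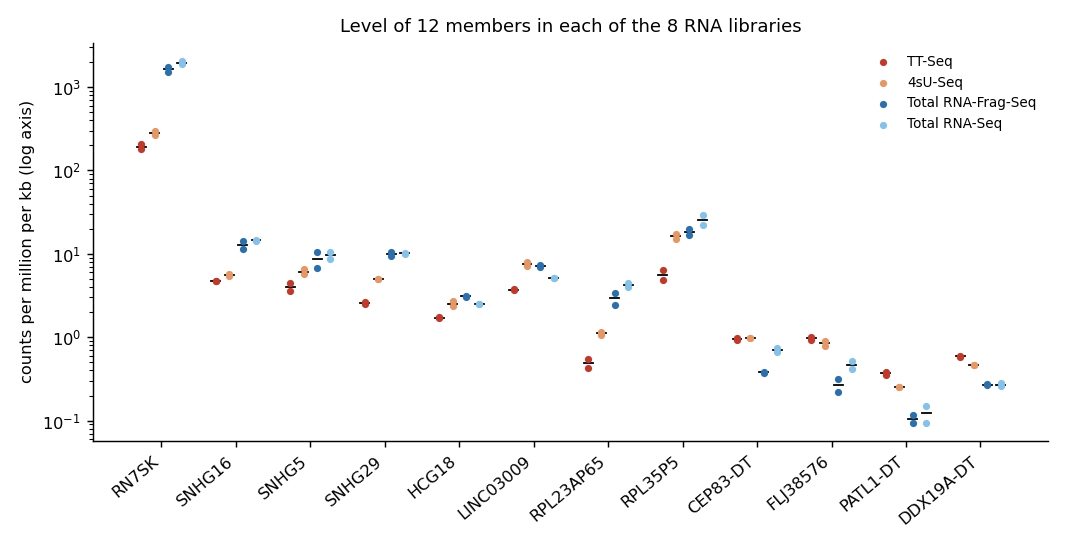
Level in CPM per kb (log axis) of 12 members in each of the 8 RNA libraries; each point is 1 library, each bar the mean of the 2 libraries of a group, and colours are the 4 groups. RN7SK sits between 181 and 2063, and its 4 purified libraries lie below its 4 total RNA libraries.

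Members were mostly lower in purified than in total sheared RNA. In the comparison of TT-Seq with sheared total RNA, 147 of the 256 members tested (57.4%) were lower and 53 (20.7%) higher by edgeR (quasi-likelihood test, Benjamini-Hochberg adjusted p over all units under 0.05). Over all 19457 tested units the shares were 37.7% lower and 43.2% higher, 81% in either direction, and over the mRNA class 61.4% and 17.7%. The median log2 fold change was -0.39 over members, 0.09 over all units and -0.35 over the mRNA class, so the members' split was near that of mRNA units. Differences of at least 2-fold passed for 55 members downward (21.5%) and 29 upward (11.3%), against 12.3% and 30.5% of all units and 17.9% and 0.768% of the mRNA class. The TT-Seq pair did not overlap the sheared total pair in 244 of the 261 members (93.5%), near the 91.4% of all units. The split depends on the scaling: without TMM factors all units shifted by 0.35, and 94 members were higher against 106 lower, 47.0% of those called in place of 26.5%.

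Classes differed in this comparison. All 5 sense-overlapping units were lower (median -1.06), as were 78 of 126 tested pseudogenes (21 higher, median -0.44), 40 of 70 processed transcripts (12 higher, median -0.47) and 23 of 34 ambiguous units (3 higher, median -0.31). TEC units went the other way, with 15 of 17 tested higher, 0 lower and a median of 1.76, and 2 of 3 sense-intronic units were higher. These higher units include a TEC unit with 0 counts and a sense-intronic unit with 2 counts in sheared total RNA. Both passed the filter on low counts through purified libraries alone, so their calls add no support to the class counts. The pseudogenes FABP5P3 and NAA50P2, also called higher, passed it in the same way, and other TEC units with few counts there may have. Without TMM factors the ambiguous median turned to 0.04 and that of 11 unprocessed pseudogenes from -0.20 to 0.15. The pseudogene median became -0.09 and the TEC median 2.11. TEC units are short, with a median length of 2.37 kb. The 5 sense-overlapping units had a median 53.3% of TT-Seq counts on their own strand, and in 2 of them the other strand held more. Some span coding genes, such as HNRNPA1, whose RNA their counts may include.

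**Figure D2:**
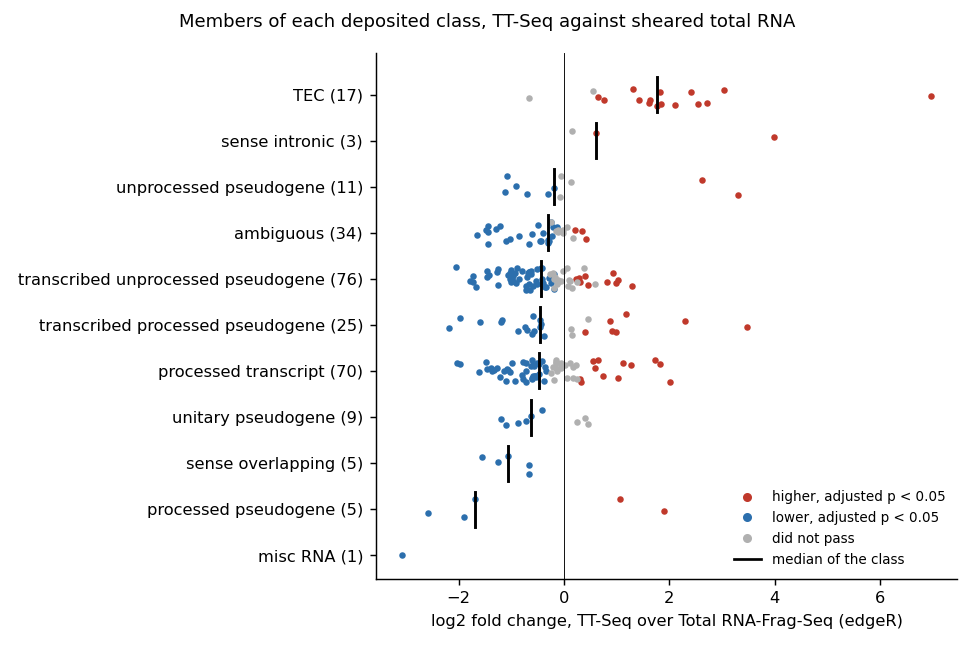
Log2 fold change of TT-Seq over Total RNA-Frag-Seq (horizontal axis, edgeR) of each tested member, by deposited class with the number tested; colours show whether the test was passed and in which direction, and lines are class medians. TEC units lie mostly right of 0 (median 1.76) and sense-overlapping units left of it (median -1.06), and the point farthest right is a TEC unit with 0 counts in sheared total RNA, whose place depends on the prior count.

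Without shearing the members were split nearly evenly. In the comparison of 4sU-Seq with unsheared total RNA, 77 members were higher and 85 lower of 256 by edgeR, where all units gave 40.2% higher and 28.1% lower, 68.3% in either direction. The members' median was -0.00 and that of all units 0.19. TEC units were again higher (14 of 17, 0 lower, median 1.10). Pseudogenes gave 34 higher and 40 lower (median -0.05), and processed transcripts 22 and 23 (median 0.02). With DESeq2's size factors all units shifted by -0.14 and the pseudogene median to -0.19, with 32.1% of the members called being higher, against 47.5% here. Without TMM factors, a shift of 0.14, that median turned to 0.09 and 62.2% were higher; DESeq2's own test gave 41 higher and 102 lower.

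The pairs did not overlap in 219 of 261 members (83.9%), near the 83.6% of all units. The comparisons with and without shearing share no library. In both, 37 members (14.5%) were higher and 81 (31.6%) lower, 16 (6.25%) were lower with shearing and higher without it, and 0 the reverse. Of all units 31.5% were higher in both, 24.4% lower in both, 3.46% lower with shearing and higher without it, and 0.735% the reverse. The mRNA class gave 9.96%, 42.6%, 4.91% and 1.58% in the same order. The differences between these sets were not tested.

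**Figure D3:**
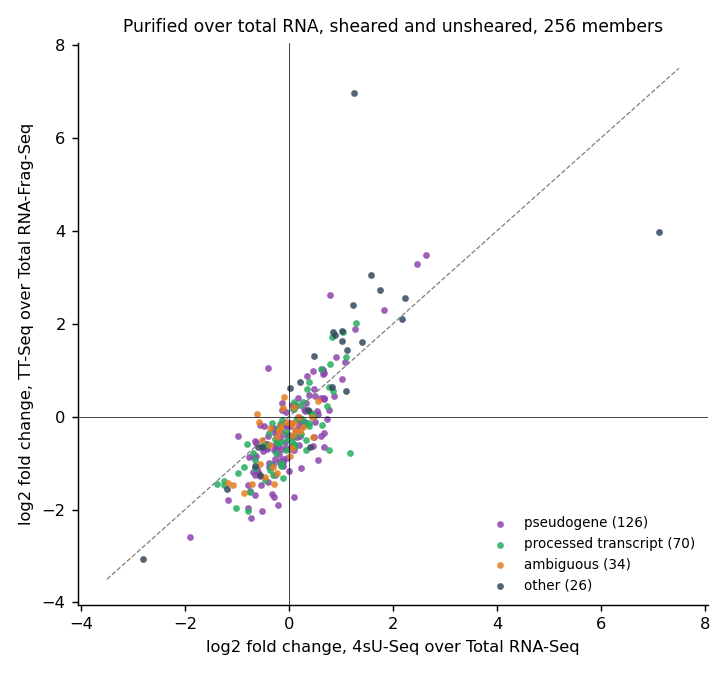
Log2 fold change of purified over total RNA for 256 members, without shearing (4sU-Seq over Total RNA-Seq, horizontal axis) and with shearing (TT-Seq over Total RNA-Frag-Seq, vertical axis); colours are kinds of class. Of the members 81 were lower in both comparisons and 37 higher in both.

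RN7SK was depleted in purified RNA more than any other member. Its unit, chr6:52995627-52995923 on the plus strand, is the shortest of the 261 and the only small RNA gene among them. Its level was 181 and 205 CPM per kb in TT-Seq, 265 and 296 in 4sU-Seq, 1520 and 1727 in sheared and 1869 and 2063 in unsheared total RNA. All 4 purified libraries were below all 4 total libraries. TT-Seq was 8.41-fold below sheared total RNA (log2 fold change -3.07 ± 0.09 SE, edgeR adjusted p = 7.65e-12) and 4sU-Seq 7.01-fold below unsheared total RNA (-2.81 ± 0.08, edgeR adjusted p = 1.11e-10). RN7SK has many near-identical copies in the genome, and the sources used here do not give how reads matching several places were handled. Its unit is shorter than 2 bins, and bins at its edges were counted whole.

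Among the snoRNA hosts 4 of the 5 SNHG members were lower in TT-Seq than in sheared total RNA and 4 in 4sU-Seq than in unsheared total RNA, with 0 higher in either. SNHG29, chr17:16415598-16476123, whose unit also holds TRPV2, was at 2.48 and 2.63 CPM per kb in TT-Seq, 5.00 and 5.05 in 4sU-Seq, 10.5 and 9.52 in sheared and 10.1 and 10.3 in unsheared total RNA. The purified pairs stood apart from each other and below both total pairs, which overlapped. The difference was -1.97 ± 0.06 with shearing (edgeR adjusted p = 2.86e-13) and -1.02 ± 0.06 without it (edgeR adjusted p = 6.57e-10).

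SNHG16, chr17:76557783-76569777, was at 4.71 and 4.68 CPM per kb in TT-Seq, 5.69 and 5.47 in 4sU-Seq, 14.2 and 11.5 in sheared and 14.4 and 14.6 in unsheared total RNA. Its difference was similar with and without shearing (-1.45 ± 0.08 and -1.37 ± 0.08), and the interaction test, which asks whether the effect of purification differs with shearing, gave -0.08 ± 0.11 (edgeR adjusted p = 0.627). SNHG5 was at 4.42 and 3.56 in TT-Seq against 10.4 and 6.72 in sheared total RNA (-1.10 ± 0.21, edgeR adjusted p = 0.00239). Its sheared total libraries lay far apart, yet both were above TT-Seq. SNHG33 was lower too (-0.59 ± 0.10, edgeR adjusted p = 4.71e-05).

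SNHG11 was the exception, at 1.27 and 1.12 CPM per kb in TT-Seq and 1.28 and 1.38 in sheared total RNA (-0.15 ± 0.11, edgeR adjusted p = 0.227). In unsheared total RNA it was at 1.94 and 1.72, above sheared total RNA (-0.47 ± 0.12 for sheared over unsheared, edgeR adjusted p = 0.00928). That call was lost without replicate 1 of sheared (edgeR adjusted p = 0.0564) or of unsheared total RNA (edgeR adjusted p = 0.129). Over the 10 members that hold a snoRNA gene, on their strand or of unknown strand, 8 were lower and 1 higher in TT-Seq against sheared total RNA.

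Of the other long non-coding RNAs listed for a described role HCG18 and PRKCQ-AS1 were members. HCG18, from the major histocompatibility region, was at 1.73 and 1.70 CPM per kb in TT-Seq, 2.73 and 2.34 in 4sU-Seq, 3.15 and 3.08 in sheared and 2.52 and 2.50 in unsheared total RNA. It was lower on purification of sheared RNA (-0.86 ± 0.06, edgeR adjusted p = 5.1e-09), and the unsheared pairs overlapped (0.02 ± 0.06). PRKCQ-AS1 was at 2.05 and 1.75 in TT-Seq and 2.16 and 1.81 in sheared total RNA, which overlap (-0.07 ± 0.10).

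Units with a LINC symbol behaved differently with and without shearing. Of 11 such units 9 were lower and 0 higher in TT-Seq against sheared total RNA (without TMM factors 7 and 2). In 4sU-Seq against unsheared total RNA 5 were higher and 1 lower, and 10 were lower by the interaction test. Of all units 37.7% were lower with shearing, 40.2% higher without it and 25.8% lower by the interaction test. Of the 256 members tested 107 were lower by the interaction. Without shearing the LINC median was 0.10 and that of all units 0.19. LINC01278, chrX:63416546-63499136, was at 1.90 and 1.55 CPM per kb in 4sU-Seq and 0.495 and 0.534 in TT-Seq, with 0.850 and 0.915 in sheared and 0.720 and 0.817 in unsheared total RNA. Both 4sU-Seq libraries stood above all 6 others, and both TT-Seq libraries below. The differences were -0.78 ± 0.09 with shearing and 1.17 ± 0.09 without, and -1.94 ± 0.13 for the interaction (edgeR adjusted p = 1.9e-07).

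A neighbouring unit inside the same gene, chrX:63500180-63561058, had 0.364 and 0.381 CPM per kb in 4sU-Seq and 0.406 and 0.417 in TT-Seq, in the opposite order. LINC03009, chr7:76549332-76609387, had 7.99 and 7.06 in 4sU-Seq, above 3.71 and 3.74 in TT-Seq and 5.08 and 5.14 in unsheared total RNA (interaction -1.49 ± 0.08, edgeR adjusted p = 4.87e-09). LINC01237 had an interaction of -1.51 ± 0.16.

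The 3 members named as microRNA hosts were lower in TT-Seq than in sheared total RNA. MIR3171HG, chr14:27299479-27678230, had 1.64 and 1.68 CPM per kb in TT-Seq, 2.36 and 2.45 in 4sU-Seq, 4.80 and 5.25 in sheared and 3.96 and 4.16 in unsheared total RNA. The 4 pairs did not overlap, and the difference was -1.60 ± 0.05 with shearing and -0.76 ± 0.05 without. MIR3936HG differed by -1.06 ± 0.08 and MIR550A3HG by -0.70 ± 0.07 with shearing. Of the 20 members that hold a microRNA gene, on their strand or of unknown strand, 16 were lower and 1 higher in TT-Seq. The 15 members given earlier were matched by strand.

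Pseudogenes of ribosomal protein genes, mostly intronless copies, were lower in 5 of 6 cases and higher in 1, RPL23AP7 (0.40 ± 0.17), in TT-Seq against sheared total RNA. RPL23AP65, chr11:9606145-9606674, was at 0.553 and 0.429 CPM per kb in TT-Seq, 1.07 and 1.16 in 4sU-Seq, 3.38 and 2.46 in sheared and 4.42 and 3.96 in unsheared total RNA. Its 4 groups kept that order without overlap, at -2.58 ± 0.28 with shearing (edgeR adjusted p = 3.9e-07) and -1.91 ± 0.25 without it. RPL35P5, chr7:66606770-66607072, was at 6.38 and 4.87 in TT-Seq and 16.8 and 19.8 in sheared total RNA (-1.70 ± 0.18), with no overlap. RPL28P3 was at 0.283 and 0.305 in TT-Seq and at 0.522 and 1.86 in sheared total RNA (-1.90 ± 0.52, edgeR adjusted p = 0.00320). That call rests on 1 library: without replicate 2 of Total RNA-Frag-Seq it was -0.85 (edgeR adjusted p = 0.227), and without its replicate 1 -2.65.

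H2AZ2P1, a copy of a histone variant gene, was at 0.366 and 0.213 CPM per kb in TT-Seq and 1.22 and 1.05 in sheared total RNA (-1.97 ± 0.39). With only bins wholly inside its short unit the difference was -1.10 and did not pass (edgeR adjusted p = 0.125).

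A few copies were higher in purified RNA. FABP5P3, a copy of a fatty acid binding protein gene at chr7:152436273-152440758, was at 0.157 and 0.196 CPM per kb in TT-Seq, 0.172 and 0.127 in 4sU-Seq, 0.0135 and 0.0176 in sheared and 0.0348 and 0.0104 in unsheared total RNA. The purified libraries all stood above the total ones, at 3.47 ± 0.51 with shearing and 2.64 ± 0.53 without it. FABP5P3 passed the filter on low counts through its purified libraries alone, so these values are a description and support nothing. They rest on few counts, 2 and 2 in sheared and 4 and 1 in unsheared total RNA. The value without shearing was 3.77 without replicate 1 of Total RNA-Seq and 2.09 without its replicate 2. An unnamed transcribed processed pseudogene at chr10:28806375-28811162 was at 0.333 and 0.338 in TT-Seq and 0.0698 and 0.0660 in sheared total RNA (2.29 ± 0.28). Of the 25 transcribed processed pseudogenes 7 were higher, FABP5P3 among them, and 15 lower, and without TMM factors 10 and 10. TREHP1, a pseudogene of the trehalase gene, was at 0.192 and 0.172 against 0.0205 and 0.0399 (2.61 ± 0.51). Its levels in sheared total RNA were low, and leaving out 1 library moved its value between 2.15 and 3.06.

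Of 76 transcribed unprocessed pseudogenes 48 were lower and 10 higher in TT-Seq against sheared total RNA, and without TMM factors 32 and 21. The 11 unprocessed pseudogenes not classed as transcribed gave 6 lower and 2 higher, and without TMM factors 4 and 5. Those higher include NAA50P2, which passed the filter on low counts through purified libraries alone. ZDHHC8BP, chr22:23389561-23402540, a relic of a palmitoyltransferase gene, was at 0.398 and 0.481 CPM per kb in TT-Seq, 1.15 and 1.43 in 4sU-Seq, 1.68 and 1.95 in sheared and 1.88 and 1.82 in unsheared total RNA. The total pairs overlapped each other and no purified pair, and the difference was -2.04 ± 0.12 with shearing (edgeR adjusted p = 5.39e-10) against -0.52 ± 0.12 without. A unit at chr1:1064105-1067163 was at 0.560 and 0.492 in TT-Seq and between 1.56 and 2.04 in the other 6 RNA libraries (-1.73 ± 0.16 with shearing, 0.10 ± 0.15 without).

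Copies of 1 family did not always go together. Of the 7 FAM86 units, relics of a protein methyltransferase gene, 1 was higher and 2 lower in TT-Seq against sheared total RNA (median -0.05, and 0.30 without TMM factors). In 4sU-Seq against unsheared total RNA 4 were higher and 1 lower, and in TT-Seq against 4sU-Seq 0 were higher and 6 lower. The 3 BMS1P units, copies of a ribosome assembly gene, were lower in both purified groups. Both CCT6P units, copies of a chaperonin subunit gene, were lower in both as well, yet higher in TT-Seq than in 4sU-Seq. Of 13 units named for a zinc finger gene 5 were lower and 0 higher in TT-Seq against sheared total RNA. Of all units 37.7% were lower and 43.2% higher there. In 4sU-Seq against unsheared total RNA 5 of the 13 were higher and 1 lower. Not all 13 are copies, since antisense units and ZNF780A are among them. Units of near-identical copies can exchange reads. Whether that happened here was not tested.

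Where the parent gene also had a unit of its own, the pseudogene was usually below it. In 35 such pairs the pseudogene's TT-Seq level per kb was a median 42.5% of the parent's, from 6.68% for RPL28P3 to 359% for MST1P2, and 9 were above their parent. In sheared total RNA the median was 72.6%, and 10 pseudogenes were a larger share of the parent in TT-Seq than there. These levels are per kb of the whole unit, introns included. Short intronless copies are thus set against long parents, such as RPL28P3 (0.466 kb) against RPL28 (20.53 kb). For such pairs the percentages are not like for like, and edge bins counted whole weigh more in the shortest units. Of 34 pairs tested, 25 pseudogenes had the lower log2 fold change of TT-Seq over sheared total RNA and 9 the higher, with medians of -0.44 and, for parents, -0.16. The 9 include FABP5P3 and NAA50P2, which passed the filter on low counts through purified libraries alone and add no support to that count. Some parents occur in more than 1 pair. The difference within a pair was not tested.

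SUZ12P1, a copy of a Polycomb gene, was at 1.56 and 1.63 CPM per kb in TT-Seq, 88.2% of SUZ12, and differed by -0.73 ± 0.06 against -0.29 ± 0.05 for SUZ12. GTF2IP14, a copy of a general transcription factor gene, had -0.70 ± 0.08 and GTF2I 0.26 ± 0.06. The signs also differed for SEPTIN7P14 (-0.43 ± 0.06, SEPTIN7 0.36 ± 0.05) and UBE2Q2P1 (-0.72 ± 0.06, UBE2Q2 0.15 ± 0.05). PMS2P1 stood at 256% of the level per kb of PMS2, a mismatch repair gene, in TT-Seq and 422% in sheared total RNA.

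Of the pairs in which the pseudogene had the higher log2 fold change, 3 are given here. WHAMMP2, a copy of an actin nucleation factor gene, had 0.99 ± 0.18 and WHAMM 0.38 ± 0.07. SMG1P5 had 0.41 ± 0.10 and SMG1, a kinase of nonsense-mediated decay, -0.18 ± 0.05. NAA50P2 was higher in TT-Seq on few counts, 27 against 1 in sheared total RNA over both libraries, a ratio of 11.3 (95% exact interval 1.87 to 464, counting error only). The single count was in replicate 1 of Total RNA-Frag-Seq. NAA50 itself had -0.85 ± 0.06.

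**Figure D4:**
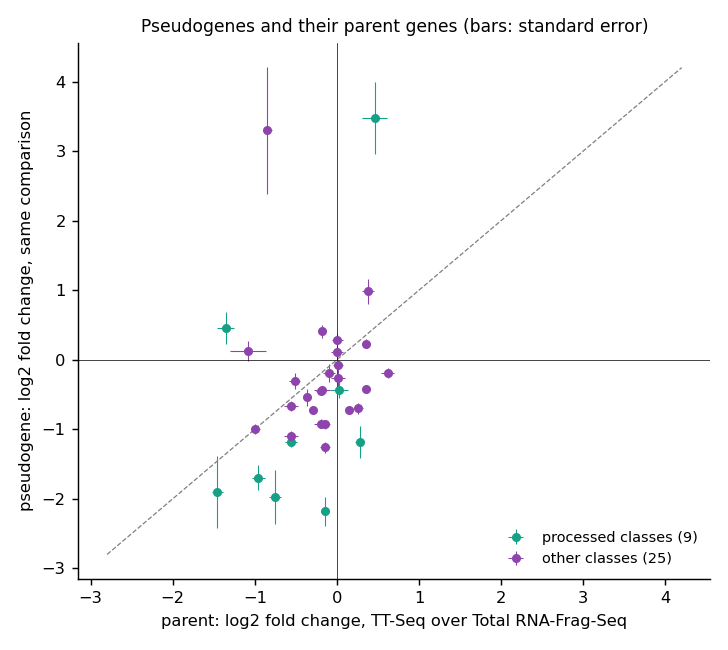
Log2 fold change of TT-Seq over Total RNA-Frag-Seq of 34 pseudogenes (vertical axis) against that of their parent genes (horizontal axis), green for processed classes and purple for others, with bars for the standard error and a diagonal of equal values. In 25 pairs the pseudogene has the lower value and in 9 the higher, with FABP5P3 and NAA50P2 highest. Both rest on few counts in sheared total RNA.

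TEC units were the class highest in purified RNA. One at chr10:26695573-26697572 was at 1.59 and 1.33 CPM per kb in TT-Seq, 1.02 and 1.29 in 4sU-Seq, 0.258 and 0.237 in sheared and 0.273 and 0.210 in unsheared total RNA. All 4 purified libraries stood above all total ones, at 2.54 ± 0.25 with shearing (edgeR adjusted p = 1.17e-07) and 2.23 ± 0.28 without. CEP83-DT, chr12:94460051-94464058, was at 0.917 and 0.981 in TT-Seq, 0.973 and 0.981 in 4sU-Seq, 0.387 and 0.374 in sheared and 0.673 and 0.733 in unsheared total RNA. The purified pairs overlapped and the total pairs did not, with 1.32 ± 0.16 for purification of sheared RNA, 0.48 ± 0.16 without shearing and an interaction of 0.84 ± 0.23 (edgeR adjusted p = 0.00930).

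FLJ38576 was at 1.02 and 0.931 CPM per kb in TT-Seq against 0.318 and 0.222 in sheared total RNA (1.82 ± 0.23). TEC units at chr19:4246016-4247491 (3.04 ± 0.46), chr19:8443982-8445746 (2.72 ± 0.40) and chr17:41666124-41669051 (2.41 ± 0.40) were also among the highest. Single libraries move these values: without replicate 1 or 2 of Total RNA-Frag-Seq, where it had 8 and 1 counts, the first was 4.92 or 2.36. The third, with 4 and 9 counts there, was 1.74 or 3.25. The first and the third may have passed the filter on low counts through purified libraries alone, so their calls are a description. The TEC unit at chr17:81394729-81396991 had 24 and 27 counts in TT-Seq, 17 and 21 in 4sU-Seq, 0 and 0 in sheared and 1 and 7 in unsheared total RNA. Against a floor of 3 counts over the group it was at least 7.14-fold higher in TT-Seq than in sheared total RNA. A sense-intronic unit at chr3:115658615-115659913 had 38 counts in 4sU-Seq and 0 in unsheared total RNA, at least 6.41-fold higher. Both units, like FABP5P3 and NAA50P2, passed the filter on low counts through their purified libraries alone, so their being higher there is a description and supports nothing.

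Units that start head to head with an mRNA unit within 1 kb gave 17 higher and 16 lower of 41 tested (median 0.12), against 36 and 131 of the other 215 (median -0.43). The difference between these sets was not tested, and 9 of the 18 TEC units are among the divergent ones. Of 7 members with a -DT symbol 4 were higher and 1 lower. PATL1-DT was at 0.348 and 0.387 CPM per kb in TT-Seq and 0.0945 and 0.116 in sheared total RNA (1.82 ± 0.25), with no overlap. Antisense transcripts by symbol (-AS) gave 3 higher and 8 lower of 19 tested.

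Some members hold coding genes. OGFOD2, chr12:122974739-122985648, whose unit also holds ARL6IP4, was at 1.72 and 1.79 CPM per kb in TT-Seq, 5.01 and 6.04 in 4sU-Seq, 7.81 and 6.48 in sheared and 9.18 and 9.81 in unsheared total RNA. The 4 groups did not overlap, with -2.03 ± 0.10 with shearing and -0.78 ± 0.10 without it. PCBP2 had 5.93 and 6.27 in TT-Seq and 8.91 and 8.30 in sheared total RNA (-0.50 ± 0.05). CHST2, a sulphotransferase gene, was lower in 4sU-Seq than in unsheared total RNA (-1.26 ± 0.10).

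Between the purified groups, TT-Seq was lower than 4sU-Seq for 112 members and higher for 27 by edgeR, where all units gave 28.6% lower and 19.5% higher, 48.1% in either direction. The members' median was -0.18 and that of all units 0.01, and the pairs did not overlap in 203 of 261 members (77.8%) and 71.4% of all units. Pseudogenes gave 59 lower and 12 higher of 126 (median -0.21), processed transcripts 31 and 4 of 70, and LINC units 8 and 0 of 11. RPL28P3 was lower by the most (-2.24 ± 0.44, edgeR adjusted p = 0.000474). PRSS30P, a relic of a serine protease gene, was at 0.534 and 0.459 CPM per kb in TT-Seq against 1.41 and 2.08 in 4sU-Seq (-1.81 ± 0.17). The count of members higher was 14 without replicate 1 of TT-Seq and 16 without replicate 1 of 4sU-Seq.

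Members higher in TT-Seq than in 4sU-Seq included coding units of the ambiguous class, though that class was mostly lower. Of its 34 units 7 were higher and 16 lower (median -0.11). GCSH, a gene of glycine cleavage, was at 0.808 and 0.833 CPM per kb in TT-Seq against 0.468 and 0.468 in 4sU-Seq (0.81 ± 0.08, edgeR adjusted p = 2.55e-07). RNF125, a ubiquitin ligase gene, followed with 0.596 and 0.625 against 0.390 and 0.363 (0.70 ± 0.07). In both the pairs stood apart. SMG1P5 (0.65 ± 0.09), a pseudogene unit at chr5:34199161-34245112 (0.64 ± 0.07) and CA14P1 (0.64 ± 0.20) came next. CA14P1 lost its call without replicate 1 of TT-Seq (edgeR adjusted p = 0.115) or of 4sU-Seq (edgeR adjusted p = 0.171).

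Shearing alone moved fewer members. Sheared was above unsheared total RNA for 75 members and below it for 8 by edgeR, where all units gave 16.5% higher and 5.47% lower, 22% in either direction. The members' median was 0.09 and that of all units -0.03, and 159 of 261 members (60.9%) had pairs that did not overlap, against 54.8% of all units. CRYBB2P1, a lens crystallin pseudogene, had 0.917 and 0.973 CPM per kb in sheared and 0.610 and 0.641 in unsheared total RNA (0.60 ± 0.07). A pseudogene unit at chrX:136908506-137008430 (0.62 ± 0.08) and the second LINC01278 unit (0.61 ± 0.08) were close to it. ZNF876P had 0.75 ± 0.15, which without replicate 2 of Total RNA-Frag-Seq was 0.47 (edgeR adjusted p = 0.086).

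These counts are sensitive to scaling and to single libraries. With DESeq2's size factors 50 members were higher and 23 lower, 68.5% of those called in place of 90.4%. Without TMM factors, a shift of all units by -0.15, they were 39 and 27 (59.1%). Without replicate 2 of Total RNA-Frag-Seq 19 were higher and 13 lower. Without replicate 1 of Total RNA-Seq 47 were higher, and without its replicate 2 4 were lower.

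CEP83-DT was among the members lower in sheared total RNA (-0.88 ± 0.19, edgeR adjusted p = 0.00313). The ambiguous unit SPNS1, a transporter gene whose unit also holds LAT (-0.50 ± 0.12), and CHST2 (-0.41 ± 0.09) were lower too. SPNS1 lost its call without replicate 2 of Total RNA-Seq (edgeR adjusted p = 0.0880) and CHST2 without replicate 1 (edgeR adjusted p = 0.0503).

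By the interaction test the effect of purification was lower with shearing than without for 107 members and higher for 9, where all units gave 25.8% lower and 8.65% higher, 34.4% in either direction. The medians were -0.28 and -0.04. Pseudogenes gave 53 lower and 2 higher of 126 (median -0.39), processed transcripts 33 and 0 of 70, ambiguous units 18 and 3 of 34, and TEC units 0 and 4 of 17 (median 0.62). With DESeq2's size factors and without TMM factors, shifts of 0.13 and 0.20, 20 and 26 members were higher, 18.9% and 25.0% of those called in place of 7.76%. Without replicate 2 of TT-Seq 15 were higher, and without replicate 1 of TT-Seq 6.

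On chromatin, the balance of S2P over N20 varied between the classes. S2P was above N20 for 68 members and below it for 47 of 261 by edgeR, where all 20549 tested units gave 22.7% higher and 19.3% lower, 42% in either direction. The members' median log2 ratio was 0.02, that of all units -0.08 and that of the mRNA class 0.24. ChIP counts have no strand, so a member and a unit across from it share them, and every nonzero ChIP bin count in the files is an even number. In 206 of 261 members (78.9%) the pairs did not overlap, as in 70.6% of all units. Without TMM factors all units shifted by -0.65 and 28 members were higher and 141 lower, 16.6% of those called in place of 59.1%. Without replicate 2 of N20 43 were higher and 17 lower, and without its replicate 1 18 were lower.

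Sense-overlapping units (4 of 5 higher, median 1.25), FAM86 units (5 of 7 higher, 0 lower, median 1.19) and ambiguous units (16 higher and 2 lower of 34, median 0.39) were high in S2P, and TEC units low (0 higher and 8 lower of 18, median -0.83). In 2 of the 5 sense-overlapping units most TT-Seq counts were on the other strand, whose polymerase the ChIP counts include. The ambiguous median turned to -0.26 without TMM factors, where it was 0.48 above that of all units. MSTO2P, a pseudogene at chr1:155746073-155751953, had 3.12 and 2.77 CPM per kb in S2P and 0.459 and 0.634 in N20 (2.40 ± 0.33, edgeR adjusted p = 2.15e-05), but only 48.2% of the TT-Seq counts there were on its strand. RABL6, a GTPase gene, had 21.4 and 32.0 in S2P and 5.85 and 5.44 in N20 (2.24 ± 0.18). OGFOD2 (2.15 ± 0.19) and SNHG29 (2.10 ± 0.18) were as high, and in each of these units the S2P pair lay wholly above the N20 pair.

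At the other end, STAG3L3, a relic of a cohesin gene at chr7:73001490-73005911, had 0.644 and 0.813 CPM per kb in S2P and 2.55 and 2.25 in N20 (-1.72 ± 0.32, edgeR adjusted p = 0.000417). ZRANB2-DT had 0.0651 and 0.0558 against 0.242 and 0.168 (-1.74 ± 0.32), and the TEC unit at chr6:88963771-88965747 differed by -1.59 ± 0.39. The pseudogene at chr10:28806375-28811162 had -2.03 ± 0.58, a call lost without replicate 2 of N20 (edgeR adjusted p = 0.281). HSD17B7P2 (-1.57 ± 0.48) lost its call without replicate 1 of N20 (edgeR adjusted p = 0.111) and was -2.49 without replicate 1 of S2P. N20 counts were concentrated at starts: the level there was a median 4.74 times that of the whole unit over members, 6.97 times over the mRNA class, and 10.6 times over the 10 snoRNA-holding members. The start is 1 kb in every unit, so this ratio depends on unit length, a median 22.3 kb in members and 43.1 kb in the mRNA class. The ratios therefore do not compare the sets. The first of 10 equal parts of a unit held a median 27.5% of N20 counts in members and 26.7% in the mRNA class.

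Along the units the counts declined from 5' to 3' more steeply in members than in mRNA units. Each unit was split into 10 equal parts, for units of at least 2 kb with at least 200 counts. The first 3 parts held a median 40.8% of a member's TT-Seq counts and the last 3 parts 16.2%, and the first held more in 194 of 221 members. In the mRNA class the medians were 35.1% and 22.9%. In sheared total RNA members gave 35.5% and 19.8% and mRNA units 28.1% and 28.9%. Processed transcripts had 46.3% and 12.3% in TT-Seq, near the long intergenic class at 46.8% and 13.9%, and ambiguous units 39.4% and 22.0%. In S2P the members' medians were 37.2% and 23.8%, and in N20 50.3% and 20.3%. The difference between classes was not tested.

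**Figure D5:**
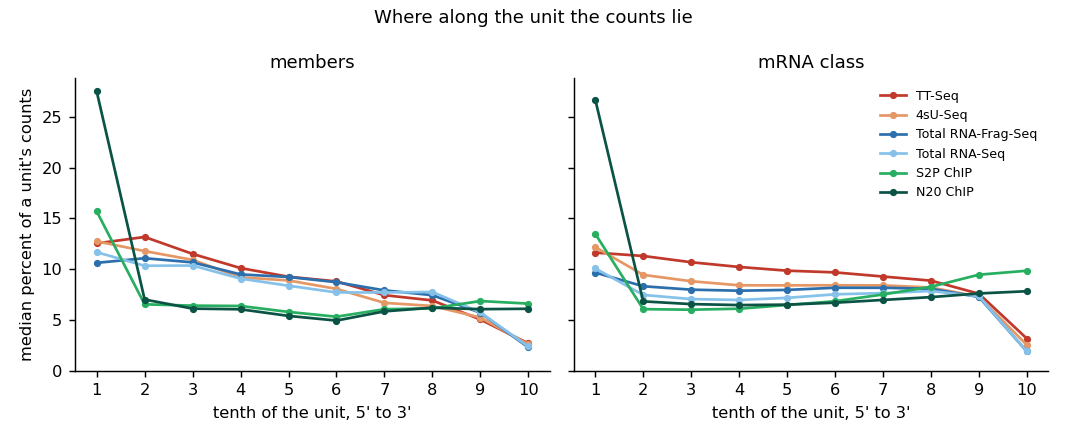
Median percent of a unit's counts in each of 10 equal parts of its length from 5' to 3', for members and the mRNA class; colours are the groups. In members the TT-Seq line falls along the unit (40.8% of counts in the first 3 parts, 16.2% in the last 3), and in the mRNA class it falls less (35.1% and 22.9%).

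The authors' deposited table also gives a synthesis and a decay rate per unit, with no unit of measure stated. These rates carry no error here and are not independent of the RNA libraries above. In the authors' deposited table the median decay rate was 0.0125 over the 225 members with a value, 0.0141 over the mRNA class and 0.0448 over all units. In the authors' deposited table TEC units had 0.131 and the 9 snoRNA-holding members with a value 8.07e-05. The median synthesis rate in the authors' deposited table was 0.00273 over members and 0.00599 over the mRNA class.

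Low counts left 5 members out of the RNA tests: the processed pseudogenes CCDC137P1, LOC100129344 and LOC100422399, the processed transcript HOXC-AS3 of the HOXC homeobox cluster, and 1 TEC unit at chr7:18000370-18000961. LOC100129344 had 15 and 23 counts in TT-Seq, 5 and 2 in 4sU-Seq, 1 and 0 in sheared and 0 and 0 in unsheared total RNA. All 5 had pairs in TT-Seq above those in sheared total RNA.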

How the data were processed

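The files hold counts of read fragments in 200 bp bins over the human genome (GRCh38), separately for each strand in RNA and over both in ChIP, as the authors deposited them. The submitters' processing notes name STAR 2.3.0, Bowtie2 2.1.0 and SAMtools without saying which step each served, and the handling of reads that match several places is not stated. The synthesis and decay rates are scores per unit in the authors' deposited annotation. A further 16 columns of per-sample counts match no sample here and were not used. Bins overlapping a unit were summed on its strand, edge bins whole, and CPM per kb uses the unit's length. Symbols came from RefSeq genes of the same build by span, start or containment. A gene, small RNA genes included, counted as held by a unit on its strand or when the gene's own strand was not given.

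Counts were tested in R 4.3.3 with edgeR 4.0.16 (limma 3.58.1): filterByExpr, TMM factors (0.872 to 1.11 for RNA, 0.795 to 1.28 for ChIP), a robust quasi-likelihood fit and Benjamini-Hochberg adjustment over all units at 0.05. The 8 RNA libraries entered 1 fit with 19457 units, the 4 ChIP libraries another with 20549. The coefficient of variation between replicates was 0.0547 for RNA and 0.185 for ChIP. Tested on simulated data, the fit recovered 77% of 200 units changed 2-fold between TT-Seq and Total RNA-Frag-Seq among 19457 units. In S2P against N20 ChIP it recovered 86% of 200 among 20549. Both simulations used a spread near that of the RNA fit, well below the 0.185 of the ChIP libraries. The 86% therefore does not describe recovery in the real ChIP data. TT-Seq against Total RNA-Frag-Seq shares no library with 4sU-Seq against Total RNA-Seq, but every other pair of RNA comparisons shares libraries. Alternatives were DESeq2 1.42.0, other scalings, no filter, bins wholly inside the unit, single libraries left out and a replicate block.

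Named members are the 10 highest and 10 lowest passing between TT-Seq and Total RNA-Frag-Seq, 5 of each in other comparisons, the 10 highest levels, the longest and shortest unit, listed non-coding RNAs and pseudogenes with a parent unit. CTTTT and the CG pairs, and the examples beyond that rule, were chosen after values or sequences were seen. The members and lists were chosen with earlier results of these data known. Some members that the rule names are not reported here.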

Additional observations from a re-analysis of the deposited data

Results flagged for a closer look

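The effect of purification differed with shearing for a part of the members by the interaction test (edgeR, TT-Seq over Total RNA-Frag-Seq minus 4sU-Seq over Total RNA-Seq), with 9 members higher (3.52%) and 107 lower (41.8%). Of all units 8.65% were higher and 25.8% lower, and of the mRNA and long intergenic classes 39.8% and 36.2% were lower; the differences between these sets were not tested. The lowest values were those of LINC01278 (-1.94), the pseudogene unit at chr1:1064105-1067163 (-1.83), ZDHHC8BP (-1.52), LINC01237 (-1.51) and LINC03009 (-1.49), and these calls held under every alternative run. Among the highest, GCSH (0.68) and CEP83-DT (0.84) also held. FLJ38576 (0.98) lost its call with DESeq2's test and in 4 of the fits without 1 library, and the TEC unit at chr3:53045768-53049364 (0.83) in 4 such fits. The TEC unit at chr17:81394729-81396991 (5.72) has 0 counts in both Total RNA-Frag-Seq libraries, so this fitted value depends on the prior count and is no bound.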

How the results depend on the processing

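Of the counts of members higher or lower under each alternative, 125 stayed within 1.5-fold of the reported count and 23 did not. For the highest and lowest passing members of each comparison 759 values kept their side of the threshold, 34 kept their direction but lost the call, and 0 reversed. These members were picked for large differences in the same data, so reversals were unlikely from the start. Other named members are not in this tally. Settings in which a member was filtered out or had no adjusted p were not counted. Without TMM scaling 94 members were higher in TT-Seq over sheared total RNA, 39 higher and 27 lower in sheared over unsheared total RNA, 26 higher by the interaction, and 28 higher and 141 lower in S2P against N20 ChIP. With DESeq2's size factors 23 were lower in sheared over unsheared total RNA and 20 higher by the interaction. DESeq2's test gave 41 higher in 4sU-Seq over unsheared total RNA, and 49 higher and 18 lower in sheared over unsheared total RNA, and a fit of only the compared libraries gave 16 lower there. The cause of these changes was not tested.

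Leaving out 1 library at a time, the counts higher and lower ranged over 47 to 51 and 134 to 141 in TT-Seq over sheared total RNA, 54 to 75 and 71 to 86 in 4sU-Seq over unsheared total RNA, 14 to 24 and 93 to 107 in TT-Seq against 4sU-Seq, and 19 to 68 and 4 to 13 in sheared over unsheared total RNA. They ranged over 6 to 15 and 81 to 106 for the interaction, and 43 to 89 and 17 to 67 in S2P against N20 ChIP. A group left with 1 library is assumed to vary like the others.

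Deviations of same-numbered libraries correlated at -0.0186 to 0.168 over RNA groups and -0.0258 in ChIP, so no strong shared effect of the replicate number was seen. These values cannot tell whether same-numbered libraries came from the same culture. With the replicate number as a block the counts higher and lower were 52 and 150, 77 and 86, 28 and 118, 79 and 9, 11 and 115, and 71 and 48, in the order of the ranges above. With ChIP counts halved, an alternative chosen after seeing the data, 69 and 48 members passed. The deposited exon counts could not be matched to units, and that alternative was not run. Depth limits units with few counts in total RNA, such as FABP5P3 with 2 and 2 counts in its sheared libraries.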
